A study of Mus musculus with 6 samples.

Results

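Wnt ligands and the receptors that bind them were examined in mesenchymal cells of the urogenital sinus, the embryonic tissue from which the mouse prostate buds. The genes were taken by name, as 6 ligands (Wnt2, Wnt4, Wnt5a, Wnt6, Wnt7b and Wnt11) and 4 receptors (the Frizzled genes Fzd1, Fzd2 and Fzd7, and Ror2). Every probe set that the array annotation assigns to 1 of these 10 genes was used, which gave 15 of the 22690 probe sets on the array, 8 of ligands and 7 of receptors. No probe set with several gene symbols included any of them. The study selected Wnt6, Wnt7b and Wnt11 for its list of responding genes on these same arrays, so the direction of those 3 genes here is not independent evidence.

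E2-treated cells received 100 nM estradiol (E2) for 4 days, and control cells received the 0.05% ethanol vehicle over the same 4 days. Both groups were first-passage primary cultures from male CD-1 fetuses at gestation day 17. All cells had been held for 3 days in estrogen-free medium and the potent androgen dihydrotestosterone (DHT) was present at 690 pM in both groups. RNA of 3 samples per treatment was hybridized to Affymetrix mouse expression arrays, which report a fluorescence signal in arbitrary units for each probe set, a group of short probes to 1 transcript or a few. The epithelium had been discarded when the cultures were set up, so that the cells were measured apart from their natural partner tissue.

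Wnt proteins are secreted, lipid-modified signals that act over short distances. A Wnt bound to a Frizzled, a receptor that crosses the membrane several times, and to a coreceptor of the LDL receptor family stabilizes β-catenin, which then activates transcription with TCF/LEF factors. Other Wnts, of which Wnt5a is the usual example, act with Frizzleds and the receptor tyrosine kinase Ror2 on cell polarity and movement without β-catenin. In budding organs such signals pass in both directions between mesenchyme and epithelium.

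The deposited signals were linear, with array medians of 13.7 to 21.8 units, and each array was scaled to a common median of 17.2 units. All signals below are on this scale unless given as deposited. All 12 mesenchymal markers examined were above 10 units, the level under which the study discarded genes, and the brightest probe set of vimentin (Vim), the intermediate filament of mesenchymal cells, read 1550 to 1865 units in E2 and 1737 to 1838 units in control. E2 replicate 2 and control replicate 3 stood apart from the rest in 1 control probe set for 18S ribosomal RNA, with 288 and 281 units as deposited against 22.8 to 44.7 units on the other arrays. Differences were fitted with limma, E2 minus control, on the log2 scale, and p-values were adjusted by Benjamini-Hochberg over 14223 probe sets, those that averaged at least 10 units as deposited in E2 or in control. The sources do not say whether the 3 samples of a treatment came from separate cell preparations, and the p-values then reflect only how far these particular samples differ, which may be technical variation.

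On average all 6 ligands exceeded 10 units in E2-treated cells by at least 1 probe set, whereas 3 of them, Wnt4, Wnt5a and Wnt11, did so in control cells. By single arrays after scaling, Wnt2 reached 10 units on 1 of 3 arrays in each group. Wnt6 did so on 3 E2 and 0 control arrays, Wnt7b by 1420892_at on 2 E2 and 0 control arrays, and Wnt11 on 2 E2 and 3 control arrays. The counts of Wnt2 and Wnt7b depended on the scale. As deposited, Wnt2 read 14.8, 5.89 and 12.2 units in E2 replicates 1 to 3, against 7.09, 15.7 and 5.45 units in control. Wnt7b by 1420892_at read 13.5, 11.8 and 10.7 units in E2 as deposited, against 8.19, 6.91 and 3.85 units in control. Wnt2, Wnt6 and Wnt7b averaged under 10 units in control and entered the test through their E2 mean alone. The 4 receptor genes on average exceeded 10 units in both groups by every probe set, although E2 replicate 2 of Ror2 read 8.02 units as deposited. Of the 15 probe sets, 11 were above this level in both groups, 3 in E2 only and 1, a probe set of Wnt7b, in neither. That last probe set was not tested.

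At an adjusted p under 0.05 from limma, 0 of the 14 probe sets tested passed, where 0.745% of all probe sets tested did (0.492% higher and 0.253% lower). Before adjustment, 5 had a p under 0.05 from limma, those of Wnt5a, Wnt6, Wnt11 and Fzd2, the last by a pair of probe sets, with 4 higher and 1 lower in E2. Over all probe sets tested this held for 7.99% (3.44% higher and 4.55% lower). With the thresholds of the study, at least 1.5-fold and p of at most 0.05 before adjustment, 2 passed, Wnt6 higher and Wnt11 lower, where 3.94% of all probe sets tested passed (2.06% higher and 1.88% lower). The study also listed Wnt7b as higher at these thresholds. Here its brighter probe set was 1.91-fold higher with an unadjusted p of 0.110 from limma. The study does not name the test it used on these arrays. The 3 E2 arrays lay wholly above or below the 3 control arrays in 8 of the 14, of 7 genes, with 6 higher and 2 lower. Over all probe sets tested this held for 14.2% (5.72% higher and 8.49% lower). In the values as deposited it held for 3 of the members, the probe sets of Wnt6 and Wnt11 and the brighter one of Wnt7b, and for 5.1% of all. The median log2 difference over the 14 was 0.27, beside a median of -0.04 over all probe sets tested. The filter itself favored a higher E2 signal for the probe sets of Wnt2, Wnt6 and Wnt7b tested here. The study had also picked Wnt6, Wnt7b and Wnt11 on these arrays. The counts by direction and this median are therefore not independent evidence of a shift of the members. Among all probe sets that limma called, 70 were higher and 36 lower in E2 after scaling, or 66.0% higher, and 39 and 7 as deposited, or 84.8% higher.

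**Figure D1:**
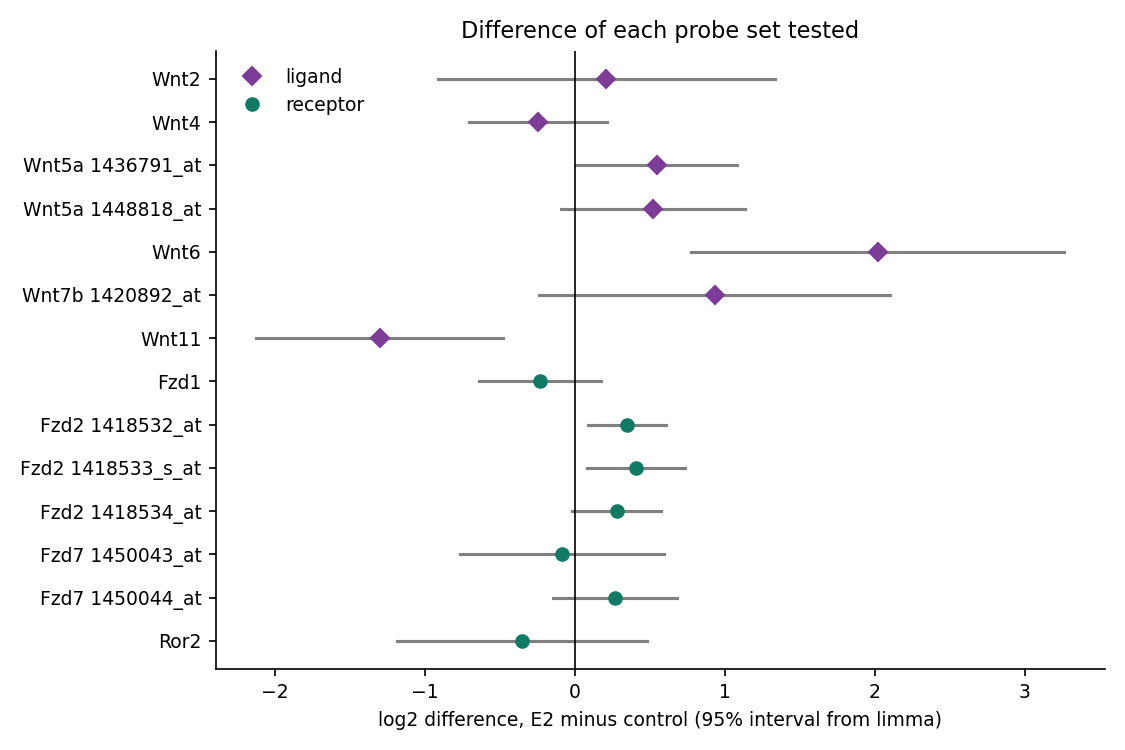
log2 difference between E2 and control (E2 minus control) for the 14 probe sets tested, with its 95% interval from limma as a grey line. Diamonds are ligands and circles are receptors. The intervals of Wnt6 and Wnt11 lie on opposite sides of 0, and those of Wnt5a 1436791_at and of the Fzd2 probe sets 1418532_at and 1418533_s_at lie above it.

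Wnt6, a ligand made by epithelia such as the ureteric bud of the kidney, had the lowest p of the genes that were higher in E2. Its signal was 15.6, 18.4 and 20.9 units in E2 replicates 1 to 3, against 9.502, 2.39 and 3.98 units in control replicates 1 to 3. All E2 arrays were above 10 units, all control arrays were below it, and the groups did not overlap. The means were 18.3 ± 2.66 units in E2 and 5.29 ± 3.73 units in control (SD, n = 3 each). On the log2 scale the difference was 2.02 (SE 0.58, 95% interval 0.77 to 3.26, adjusted p = 0.211 from limma). The control values lie in the lowest part of the scale, under the 10-unit level. With every value under 10 units set to 10 units, the log2 difference of Wnt6 was 0.86 (adjusted p = 0.148 from limma), and with log2(value + 16) it was 0.70 (adjusted p = 0.101 from limma).

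Wnt11, which acts largely outside β-catenin signaling and marks the tips of the branching ureteric bud, had the lowest p of the genes that were lower in E2. Its signal was 21.9, 15.2 and 7.32 units in E2 replicates 1 to 3, against 26.6, 27.7 and 49.7 units in control replicates 1 to 3. The groups did not overlap, although the highest E2 array came within 5 units of the lowest control array, and E2 replicate 3 and control replicate 3 were the extremes. The means were 14.8 ± 7.29 units in E2 and 34.7 ± 13.0 units in control (SD, n = 3 each). On the log2 scale the difference was -1.30 (SE 0.38, 95% interval -2.12 to -0.48, adjusted p = 0.233 from limma), a 2.47-fold lower signal. Leaving out E2 replicate 3 gave -0.86 and leaving out E2 replicate 1 gave -1.66, so that single arrays moved the size and not the direction. Without moderation of the variance across probe sets, Wnt11 no longer had an unadjusted p under 0.05, while Wnt6 did.

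**Figure D2:**
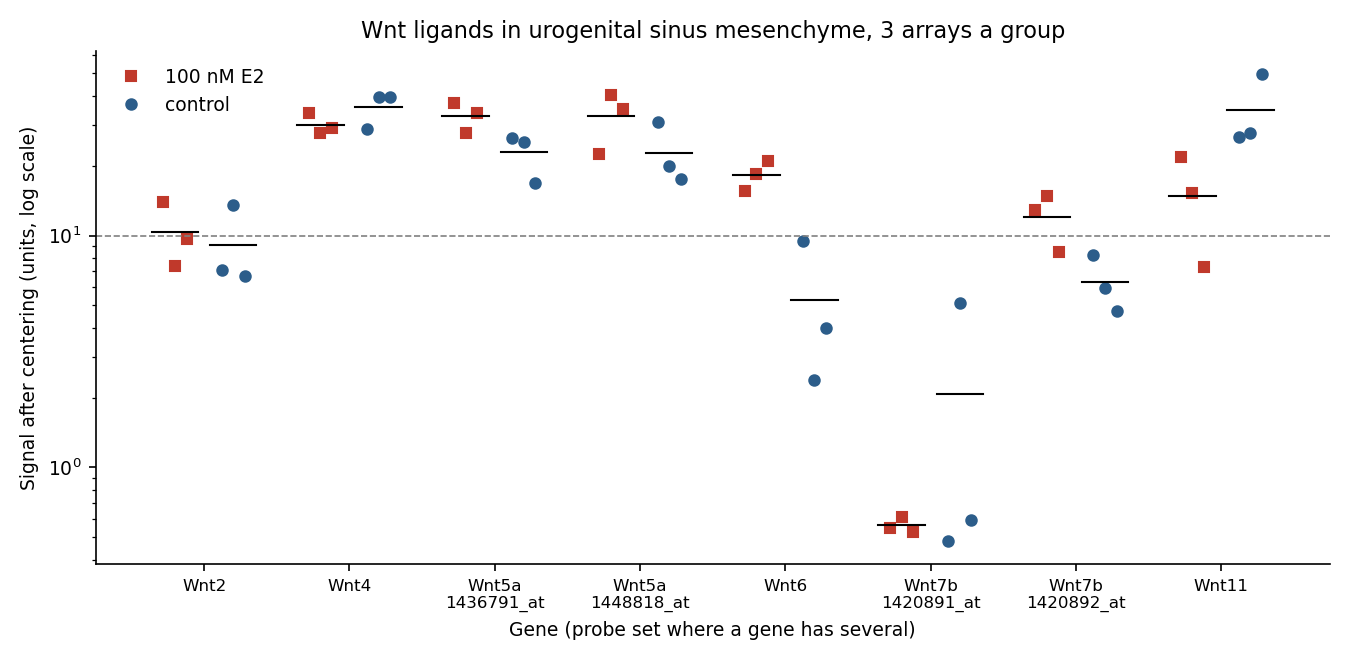
Signal of the 8 ligand probe sets after scaling, in units on a log axis, with 100 nM E2 (squares) left of control (circles), 1 point per array, a black bar at the mean and a dashed line at 10 units. For Wnt6 the 3 E2 arrays lie at 15.6 to 20.9 units and the 3 control arrays at 2.39 to 9.502 units, and for Wnt11 the E2 arrays lie at 7.32 to 21.9 units and the control arrays at 26.6 to 49.7 units.

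Wnt7b, a ligand of the epithelium in lung and kidney, was read by a pair of probe sets that did not behave alike. The brighter one, 1420892_at, gave 12.8, 14.8 and 8.46 units in E2 replicates 1 to 3, against 8.23, 5.97 and 4.73 units in control replicates 1 to 3. The groups were separated by only the gap between 8.46 units on the lowest E2 array and 8.23 units on the highest control array. The log2 difference was 0.93 (SE 0.55, 95% interval -0.24 to 2.10, adjusted p = 0.719 from limma), and 0.57 without E2 replicate 2 and control replicate 3, the arrays of high 18S signal. All control arrays of Wnt7b were under 10 units, and its log2 difference was 0.31 with values under 10 units set to 10 units and 0.33 with log2(value + 16). The dimmer one, 1420891_at, read 0.529 to 0.613 units on the E2 arrays and 0.482 to 5.13 units on the control arrays, which is below the 10-unit level throughout.

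Markers of other cell types were measured in the same RNA. Of 16 epithelial markers, 12 averaged under 10 units in both groups, and Krt7, Cldn4, Cldn7, Shh, Foxa1 and Esrp1 were under 10 units on every array by all their probe sets. Trp63 was under 10 units except by 1452027_a_at on E2 replicate 2, at 10.4 units. E-cadherin (Cdh1) and Epcam, which define epithelium, exceeded 10 units on E2 replicate 2 alone, at 12.0 and 12.7 units. The summed signal of the list was 154 to 187 units on the E2 arrays and 73.1 to 126 units on the control arrays. By their brightest probe sets, Krt7, Krt15, Foxa1 and Esrp1 averaged lower in E2 and the other listed markers higher. Krt7 averaged 1.39 units in E2 and 6.95 units in control, with no overlap. The keratin Krt18 rose, with means of 72.0 ± 11.5 units in E2 and 39.1 ± 2.84 units in control (SD, n = 3 each, log2 difference 0.87, adjusted p = 0.0416 from limma). The other 3 epithelial genes tested, Krt19, Krt8 and Krt14, had positive differences that did not pass. Each averaged under 10 units in control and entered the test through its E2 mean alone, which favors that sign. Of 12 macrophage and leukocyte markers, each by its brightest probe set, all 11 tested had negative differences. None was called, and 3 had an unadjusted p under 0.05 from limma. Over all probe sets tested 7.99% had such a p (4.55% lower), and the median log2 difference was -0.04. Over all their probe sets 12 differences were negative and 2 positive. The positive ones were those of Csf1r by 1423593_a_at, at 0.90 with no overlap between groups after scaling, and of C1qb by 1434366_x_at, at 0.68. By the brightest probe sets their summed signal was 599 to 722 units on the E2 arrays and 660 to 1101 units on the control arrays. Of 8 endothelial markers 3 were tested and none passed. The part of these cell types in the values of Wnt6, Wnt7b and Wnt11 was not tested, and in RNA from a whole culture fewer cells of a type and less RNA per cell cannot be told apart.

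The sequences before the transcription start of Wnt6 and Wnt11 are shown because these genes had the lowest p in either direction, and that of Fzd1 because it holds the only match to the estrogen receptor's core letters among the promoters listed. They are the 250 bases upstream of the start listed by RefSeq (GRCm38.p6), written 5′ to 3′ on the gene's strand, at chr1:74771642-74771891 (+) for Wnt6, chr7:98834862-98835111 (+) for the first of the pair of starts of Wnt11, and chr5:4758217-4758466 (-) for Fzd1. Capitals mark the SP1 box (GGGCGG or CCGCCC) in Wnt6 and Wnt11, and the core GGTCA or its reverse complement TGACC in Fzd1.
Wnt6: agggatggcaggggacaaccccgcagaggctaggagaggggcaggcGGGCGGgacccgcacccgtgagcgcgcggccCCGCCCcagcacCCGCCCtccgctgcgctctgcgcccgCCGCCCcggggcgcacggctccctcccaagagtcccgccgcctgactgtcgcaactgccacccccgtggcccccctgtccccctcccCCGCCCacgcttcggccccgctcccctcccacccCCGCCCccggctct
Wnt11: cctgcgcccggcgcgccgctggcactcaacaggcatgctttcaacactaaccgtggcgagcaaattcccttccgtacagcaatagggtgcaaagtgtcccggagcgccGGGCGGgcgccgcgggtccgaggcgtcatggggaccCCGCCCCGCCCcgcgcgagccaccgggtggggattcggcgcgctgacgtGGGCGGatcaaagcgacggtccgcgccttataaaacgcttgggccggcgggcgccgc
Fzd1: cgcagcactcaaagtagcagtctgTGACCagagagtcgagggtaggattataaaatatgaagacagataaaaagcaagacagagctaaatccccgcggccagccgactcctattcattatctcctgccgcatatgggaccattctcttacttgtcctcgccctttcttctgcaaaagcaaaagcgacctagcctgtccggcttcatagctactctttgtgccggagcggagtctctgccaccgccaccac
SP1 boxes are bound by a general activator with which the estrogen receptor can associate. On both strands, 6 were found upstream of Wnt6 and 4 upstream of the first start of Wnt11. These windows are 79.6% and 70.8% G or C, beside a median of 52.4% over all promoters. The SP1 box holds only G and C, and the part of base composition in its counts was not tested. Promoters were listed for 7 of the 10 genes, 8 in all, and 6 of these 8 held an SP1 box, as did 32.7% of the 32851 mouse promoters of the same length. The core GGTCA or TGACC was in 1 of the 8 and in 35.2% of all promoters, and the full estrogen response element, GGTCA and TGACC with 3 bases between them, was in 0 of the 8 and in 0.0639% of all. The TCF/LEF letters CTTTGA or TCAAAG, the site of β-catenin's partners, were in 2 of the 8 and in 13.8% of all. The 2 were those of Fzd1 and of the first start of Wnt11. The other start of Wnt11, 56.8% G or C, held no match to any of these letters. These are matches of letters in a short window and not measured sites.

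Wnt5a, the main ligand of Ror2 and a gene of the mesenchyme in many budding organs, was read by a pair of probe sets. Probe set 1436791_at gave 37.3, 27.8 and 33.7 units in E2 replicates 1 to 3, against 26.4, 25.4 and 16.8 units in control replicates 1 to 3, and the groups did not overlap. Its log2 difference was 0.54 (SE 0.25, 95% interval 0.01 to 1.08, adjusted p = 0.624 from limma). Probe set 1448818_at gave 22.5, 40.4 and 35.2 units in E2, against 30.8, 19.9 and 17.6 units in control, so that E2 replicate 1 lay below control replicate 1. Its log2 difference was 0.52 (SE 0.29, 95% interval -0.09 to 1.14, adjusted p = 0.691 from limma). Both probe sets of Wnt5a thus gave a higher mean in E2, by 1.46-fold and 1.44-fold, and neither passed. Without both arrays of high 18S signal the log2 difference of 1448818_at was 0.19. That of 1436791_at was 0.34 with control replicate 3 left out, 0.45 with E2 replicate 1 left out and 0.52 with E2 replicate 3 left out, and its unadjusted p was then no longer under 0.05.

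Wnt4, which drives the conversion of mesenchyme to epithelium in the kidney, read 33.7, 27.6 and 29.1 units in E2 replicates 1 to 3, against 28.8, 39.5 and 39.5 units in control replicates 1 to 3. The groups overlapped through control replicate 1, and the log2 difference was -0.25 (SE 0.22, 95% interval -0.71 to 0.22, adjusted p = 0.835 from limma). Wnt2, a mesenchymal ligand of the developing lung, read 14.02, 7.38 and 9.64 units in E2, against 7.13, 13.6 and 6.69 units in control. These values straddled 10 units in both groups, and the log2 difference was 0.21 (SE 0.52, 95% interval -0.92 to 1.33, adjusted p = 0.956 from limma). The interval of Wnt2 includes a 2-fold higher signal in E2, so that these arrays do not exclude a difference of that size.

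Fzd2, a receptor that takes Wnt5a among other ligands, was read by 3 probe sets, all with positive differences. Probe set 1418532_at gave 898, 715 and 795 units in E2 replicates 1 to 3, against 690, 644 and 561 units in control replicates 1 to 3, with no overlap. Its log2 difference was 0.34 (SE 0.12, 95% interval 0.08 to 0.61, adjusted p = 0.414 from limma), a 1.27-fold higher signal. Probe set 1418534_at gave 108, 105 and 110 units in E2, against 90.5, 87.6 and 89.1 units in control, again with no overlap, for a log2 difference of 0.28 (SE 0.14, 95% interval -0.02 to 0.58, adjusted p = 0.664 from limma). The arrays of each group were within 6 units of each other by this probe set. Probe set 1418533_s_at, whose suffix marks probes that can match more than 1 transcript, gave 569, 362 and 469 units in E2, against 355, 368 and 318 units in control, and E2 replicate 2 lay inside the control range. Its log2 difference was 0.41 (SE 0.15, 95% interval 0.08 to 0.73, adjusted p = 0.461 from limma), and 0.58 without E2 replicate 2 (adjusted p = 0.0550 from limma). As deposited, none of the 3 probe sets separated the groups, and the first had a log2 difference of 0.41 with an unadjusted p of 0.184 from limma. The quantile-normalized difference of the first was also 0.41 (adjusted p = 0.151 from limma).

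**Figure D3:**
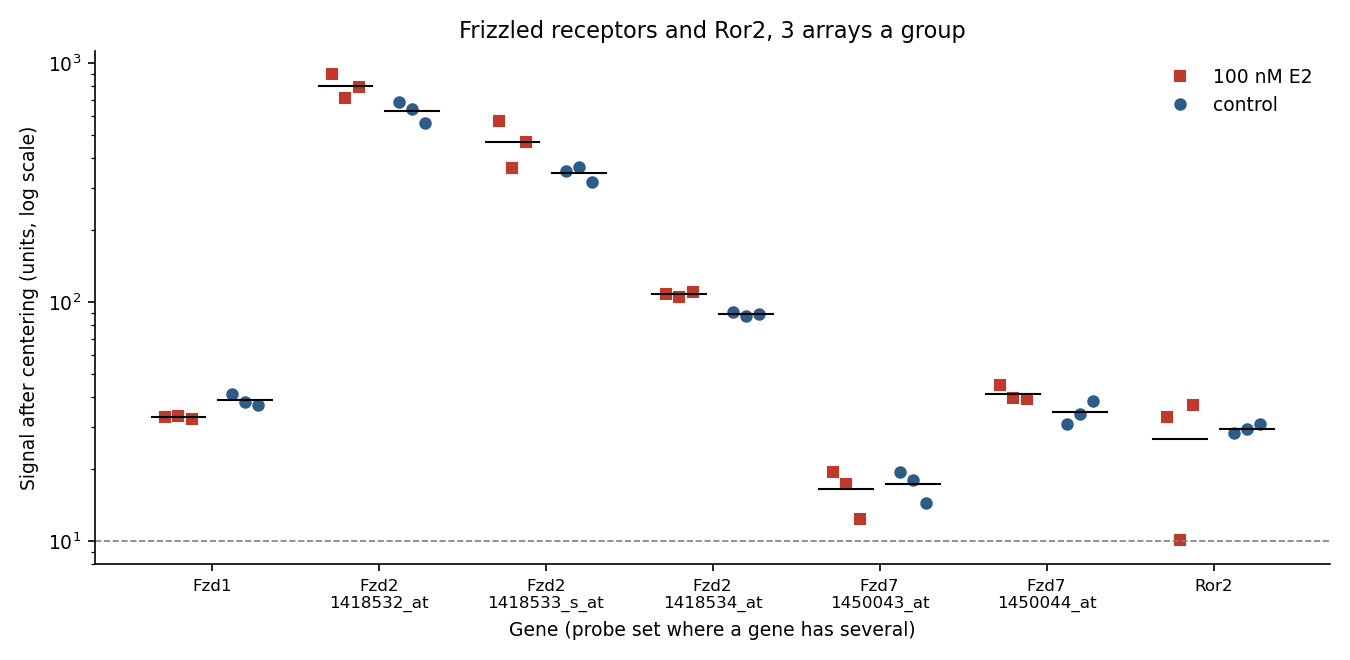
Signal of the 7 receptor probe sets after scaling, in units on a log axis, with 100 nM E2 (squares) left of control (circles), 1 point per array, a black bar at the mean and a dashed line at 10 units. E2 replicate 2 of Ror2, at 10.1 units, lies far below the other arrays of that gene, which read 28.4 to 36.9 units.

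Fzd1 and Fzd7 are close relatives of Fzd2 that can carry β-catenin signaling. Fzd1 read 33.1, 33.4 and 32.3 units in E2 replicates 1 to 3, against 41.3, 37.9 and 37.1 units in control replicates 1 to 3, and all E2 arrays were below all control arrays. The log2 difference was -0.23 (SE 0.19, 95% interval -0.64 to 0.17, adjusted p = 0.816 from limma). The brighter probe set of Fzd7, 1450044_at, read 45.1, 39.5 and 39.3 units in E2, against 31.0, 34.0 and 38.5 units in control, with no overlap and a log2 difference of 0.26 (SE 0.19, 95% interval -0.15 to 0.68, adjusted p = 0.792 from limma). The dimmer one, 1450043_at, read 19.5, 17.3 and 12.4 units in E2, against 19.4, 17.97 and 14.4 units in control, and its log2 difference was -0.09 (SE 0.32, 95% interval -0.77 to 0.59, adjusted p = 0.974 from limma). The pair of Fzd7 probe sets therefore had opposite signs, both within the error.

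Ror2 read 33.0, 10.1 and 36.9 units in E2 replicates 1 to 3, against 28.4, 29.4 and 30.8 units in control replicates 1 to 3. Replicate 2 of E2 was the outlying array and is also an array of high 18S signal. The log2 difference was -0.36 (SE 0.39, 95% interval -1.19 to 0.48, adjusted p = 0.881 from limma) with all arrays and 0.24 (adjusted p = 0.797 from limma) without E2 replicate 2. The sign for Ror2 thus turned on that array, and the part of its 18S signal in this was not tested.

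**Figure D4:**
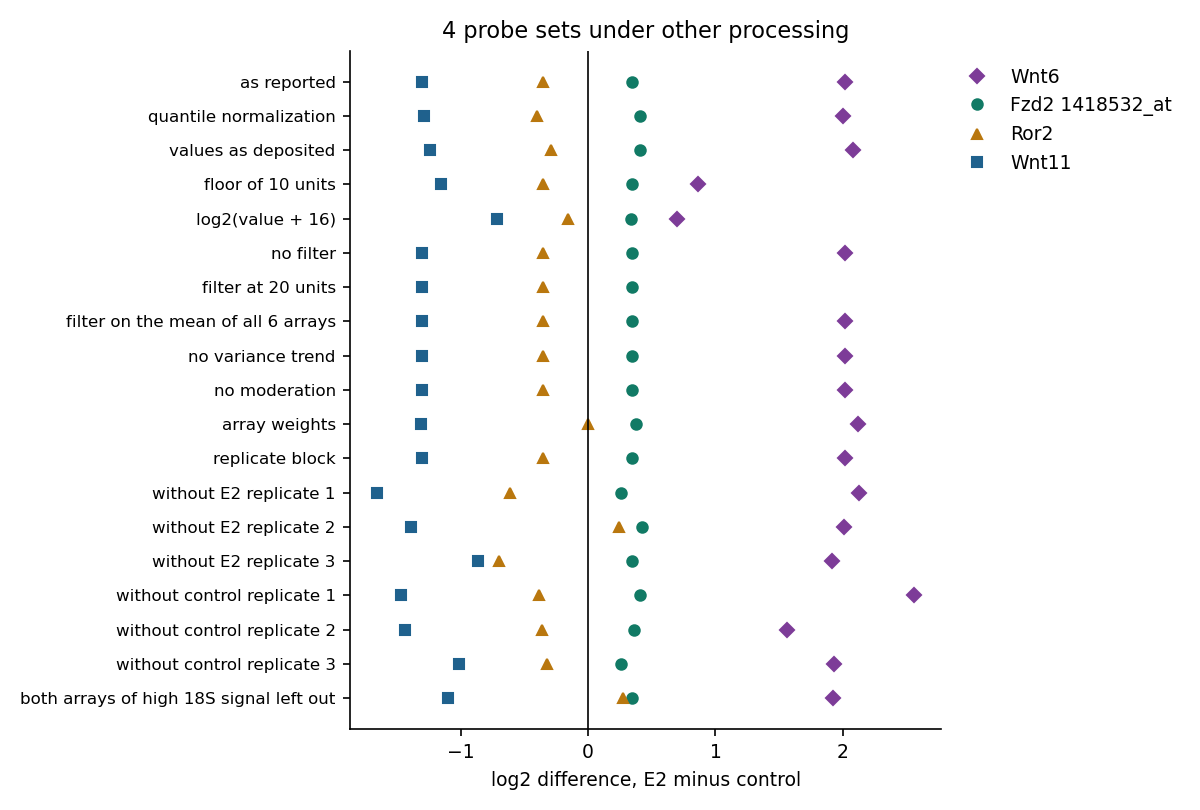
log2 difference (E2 minus control) of Wnt6 (diamonds), Fzd2 1418532_at (circles), Ror2 (triangles) and Wnt11 (squares) as reported and under 18 other settings, 1 row a setting. Wnt6 has no value at the filter of 20 units, and Ror2 lies above 0 at 0.24 without E2 replicate 2 and at 0.27 without both arrays of high 18S signal.

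Over the 6 arrays, the named genes whose log2 signal followed that of Wnt6 most closely, among 5830 probe sets averaging at least 50 units, were Adamts1 (r = 0.994), Cd44 (r = 0.974) and Cav1 (r = 0.964). For Wnt11 they were Reep3 (r = 0.981), Cox6b1 (r = 0.973) and Emp3 (r = 0.972). Adamts1, a secreted metalloprotease, averaged 134 units in E2 and 104 units in control. Reep3, a protein of the endoplasmic reticulum, averaged 74.2 units in E2 and 98.2 units in control. These correlations are descriptions over few arrays and include the difference between the groups and whatever the arrays share.

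The rest of the Wnt pathway was read from gene lists, 1 probe set a gene. Of 13 other Wnt ligands on the array 12 averaged under 10 units in both groups, 8 of them on every array. The exception was Wnt5b, a relative of Wnt5a, with means of 6.54 ± 6.77 units in E2 and 10.7 ± 0.914 units in control (SD, n = 3 each, log2 difference -1.29, adjusted p = 0.746 from limma). Of 6 other Frizzled receptors 4 were tested, 2 with positive and 2 with negative differences, and the lowest unadjusted p was 0.370. Among 8 tested coreceptors and other receptors none passed at an adjusted p under 0.05 from limma, and Lgr6 and Gpc4 had an unadjusted p under 0.05. Lgr6, a receptor for R-spondins, which amplify Wnt signals, read 22.4, 23.6 and 19.1 units in E2 replicates 1 to 3, against 4.39, 0.842 and 2.39 units in control replicates 1 to 3. All E2 arrays were above 10 units and all control arrays below it, and the log2 difference was 3.39 (SE 0.75, 95% interval 1.78 to 4.99, adjusted p = 0.0586 from limma). Like Wnt6, Lgr6 entered the test through its E2 mean only, and with values under 10 units set to 10 units its log2 difference was 1.11 (adjusted p = 0.0362 from limma). The adjusted p of Lgr6 was under 0.05 under 7 of 18 other settings and ran from 0.00474 to 0.437 over them. Gpc4, a glypican that binds Wnts at the cell surface, averaged 310 ± 28.5 units in E2 and 383 ± 47.3 units in control (SD, n = 3 each, log2 difference -0.30, adjusted p = 0.582 from limma). The receptor Ryk, singled out after its values were seen, had a log2 difference of -0.05 by its brighter probe set and of -0.53 by 1426388_s_at. By the latter the groups did not overlap after scaling and overlapped as deposited, and neither probe set passed.

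Secretion of every Wnt needs Porcn, which attaches the lipid, and Wls, which carries the modified protein to the surface. Porcn averaged 18.1 ± 1.41 units in E2 and 16.9 ± 2.44 units in control (SD, n = 3 each, log2 difference 0.10, adjusted p = 0.963 from limma). Wls had 3 probe sets, all lower in E2, and the one with the lowest p, 1423824_at, is given first. By probe set 1423824_at it read 145, 118 and 150 units in E2 replicates 1 to 3, against 196, 190 and 197 units in control replicates 1 to 3, with a log2 difference of -0.50 (SE 0.14, 95% interval -0.80 to -0.21, adjusted p = 0.166 from limma). The others had log2 differences of -0.28 for 1437434_a_at, the brightest by mean log2 signal, and -0.38 for 1423825_at. All 3 probe sets of Wls had an unadjusted p under 0.05 from limma, as did 7.99% of all probe sets tested (4.55% lower). After scaling all 3 separated the groups, as did 14.2% of all (8.49% lower), while as deposited none of the 3 did. None passed at an adjusted p under 0.05.

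Inside the cell, 14 genes of the β-catenin pathway were tested, of which 13 had negative differences by their brightest probe sets, and none passed (1 at an unadjusted p under 0.05 from limma, the kinase Csnk1d). Over all 28 tested probe sets of these genes 22 differences were negative and 6 positive, with a median of -0.09 against -0.04 over all probe sets of the array tested. The mesenchymal markers leaned the same way, with 10 negative and 2 positive by their brightest probe sets and 16 and 5 over all. The lean is thus not particular to this pathway. Csnk1d itself had 5 probe sets, of which 2 had positive differences, 0.14 and 0.17. β-catenin itself (Ctnnb1) averaged 1008 ± 27.0 units in E2 and 1154 ± 41.6 units in control (SD, n = 3 each), with a log2 difference of -0.20 (adjusted p = 0.664 from limma). Among 14 target genes of β-catenin on the array, 6 were tested and none passed (1 at an unadjusted p under 0.05 from limma). Over all 12 tested probe sets of these genes, 1 had an unadjusted p under 0.05 in each direction, that of Myc higher and 1417420_at of Ccnd1 lower. Axin2, the most general of these targets, was under 10 units on average in both groups. Myc averaged 55.3 ± 13.9 units in E2 and 37.2 ± 2.30 units in control (SD, n = 3 each, log2 difference 0.54, adjusted p = 0.525 from limma). Ccnd1, the cyclin D1 gene, was singled out after its values were seen. By 1417420_at it read 71.5, 70.8 and 79.3 units in E2 replicates 1 to 3, against 107, 126 and 109 units in control. The log2 difference was -0.62 (adjusted p = 0.0880 from limma). The groups did not overlap after scaling, as in 14.2% of all probe sets tested, and they overlapped as deposited. The other Ccnd1 probe sets gave -0.40 and -0.22. In the planar cell polarity and calcium branch, 10 genes were tested, 2 with positive and 8 with negative differences by their brightest probe sets and 6 and 14 over all, and none passed (1 at an unadjusted p under 0.05 from limma). The gene with the lowest p in that branch was Prickle1, a core polarity component, at 146 ± 16.3 units in E2 and 198 ± 31.5 units in control (SD, n = 3 each, log2 difference -0.43, adjusted p = 0.391 from limma).

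Of 7 tested genes among secreted Wnt inhibitors and R-spondins, limma called 2 higher, Dkk2 and Sfrp4, and none lower. Over all probe sets tested 0.745% were called. The study picked Dkk2 and Sfrp4 on these arrays, so their direction is not independent evidence. By the brightest probe sets 5 of the 7 differences were positive and 2 negative. Frzb was not called, with log2 differences of 0.82 by 1416658_at (adjusted p = 0.0580 from limma) and 0.54 by 1448424_at (adjusted p = 0.432 from limma). After scaling the groups did not overlap by either probe set of Frzb, while as deposited they overlapped by 1448424_at. The signal of Dkk2, which binds the LDL receptor family coreceptors, averaged 76.1 ± 21.3 units in E2 and 14.3 ± 1.76 units in control (SD, n = 3 each), and its log2 difference was 2.38 (adjusted p = 0.000156 from limma). Dkk2 and Sfrp4 were the only calls among the 53 tested genes of the 8 pathway lists. No ligand or receptor, of the members or of the lists, was called as reported.

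**Figure D5:**
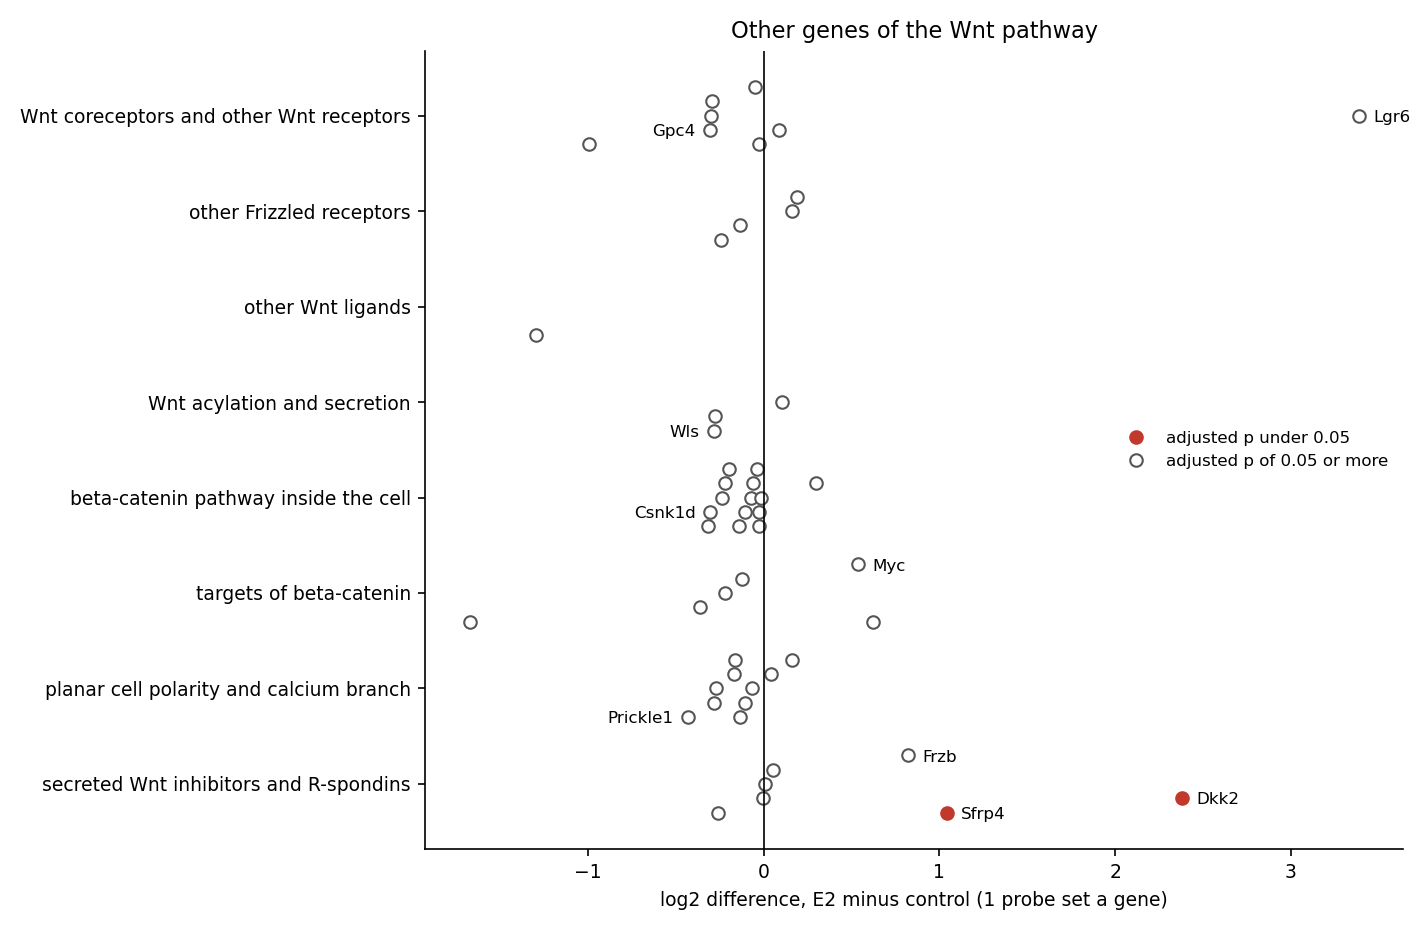
log2 difference between E2 and control (E2 minus control) for each tested gene of 8 lists of the Wnt pathway, 1 point a gene by its brightest probe set, with filled points at an adjusted p under 0.05 from limma and names at an unadjusted p under 0.05. Dkk2 at 2.38 and Sfrp4 at 1.04 are the filled points, and Lgr6 lies farthest to the right at 3.39, a value fitted to control signals under 10 units that is 1.11 with values under 10 units set to 10 units.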

How the data were processed

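Deposited values are linear intensity, 1 per probe set for each array, which the authors obtained from scans with GeneChip Operating Software and Gene Expression Console. For versions, signal algorithm, background correction and scaling, the entry is "not given in the sources used here". Groups and replicate numbers came from the sample titles. In R 4.3.3 each array was scaled to its median over 22626 probe sets, which excludes 64 controls. The 14223 probe sets whose deposited mean reached 10 units in either group were kept, and 8403 were below it. The log2 signals were fitted with limma 3.58.1 (lmFit, then eBayes with trend) as E2 minus control. Tests were two-sided, adjusted by Benjamini-Hochberg over all probe sets kept, at a threshold of 0.05. The fit was tested on simulated data. Symbols came from the platform annotation, updated by gene identifier, with 20393 probe sets having 1 symbol and 691 several, and 1606 not listed. Each listed gene was represented by the probe set of highest mean log2 signal, and from each list up to 3 genes with the lowest p and any called gene could be named, along with all 10 members. The members and gene lists were chosen with earlier results of these data known. Alternatives changed the scaling, filter, handling of dim values, variance model and arrays used, or added a replicate block. Precision is limited by the number of arrays, and the log2 differences had a median standard error of 0.21. Promoter sequences are RefSeq's, and the arrays' own build is not given in the sources used here.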

Additional observations from a re-analysis of the deposited data

How the results depend on the processing

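None of the 14 member probe sets passed an adjusted p of 0.05 from limma under any of the 18 settings, and of their 246 values under them, 242 kept their direction and 4 turned. The 4 were Fzd7 by 1450043_at, which ran from -0.22 to 0.10 with single arrays left out, and Ror2, which ran from -0.70 to 0.24 with single arrays left out and was 0.27 without both arrays of high 18S signal (E2 replicate 2 and control replicate 3). Across all settings the log2 difference of Wnt6 ran from 0.70 to 2.56 (adjusted p from 0.0983 to 0.578) and that of Wnt11 from -1.66 to -0.72 (adjusted p from 0.116 to 0.708). Of the 2 probe sets past 1.5-fold with p of at most 0.05 before adjustment, Wnt6 was not tested at a filter of 20 units, which left 1, with 0 higher. Without moderation 1 was left, Wnt6, with 0 lower, and without a variance trend Wnt7b made 2 higher. With single arrays left out the count ran from 2 to 4, with 1 to 3 higher and 1 lower each time, because probe sets of Wnt5a passed without control replicate 1 or 2 or E2 replicate 1 or 2. It was 4 without control replicate 1. Over all probe sets, limma called 106, or 70 higher and 36 lower. It called 46 as deposited (39 higher, 7 lower), 16 without a variance trend (15 higher, 1 lower), 3 without moderation (3 higher, 0 lower), 182 with array weights (112 higher, 70 lower), and 56 to 106 with single arrays left out (37 to 75 higher, 11 to 31 lower). The causes were not tested. Pairing by replicate number was not evident: deviations from the group means correlated at 0.14, -0.15 and -0.17 for replicates 1, 2 and 3. E2 replicate 2 correlated best with control replicate 3, at 0.24, and these are the arrays of high 18S signal. Such a check cannot exclude pairing, because the deviations within a group of 3 sum to 0 and array quality can enter them. With the replicate number as a block, limma called 88 probe sets and 0 of the members. Signals near background limit Wnt2, Wnt6 and Wnt7b most.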
